A study of Mus musculus with 2 samples.

Results

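The 10 genes described here encode the subunits of the transcription factor NF-kB and the proteins that hold it back, the IkB inhibitors. They were taken by name from the 17238 genes of a single-cell count table, and all 10 were measured in every group of cells compared. The cells were labelled as sorted IL7ra+ ILC from the gut (innate lymphoid cells, tissue-resident lymphocytes without rearranged antigen receptors), although part of them carried T cell genes, and they were sequenced with the 10x Chromium 3′ v2 kit. There were 2 libraries, 1 from the small intestine (5490 cells) and 1 from the colon (7549 cells), each made from a pool of 8 fed C57BL/6 mice aged 8 weeks. With 1 library per tissue no p-value can be given, and cells of a pool are not replicates. Every interval below is a 95% interval for counting error only and does not cover the spread between cells or between mice.

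NF-kB is a dimer of Rel proteins that waits in the cytoplasm until a signal frees it. In the canonical pathway, receptors for cytokines and microbial products activate a kinase that marks IkB proteins for destruction, and dimers of p50 (from Nfkb1), RelA and c-Rel enter the nucleus. In the noncanonical pathway, receptors such as the lymphotoxin beta receptor and RANK lead to the processing of the Nfkb2 product to p52, which pairs with RelB. Several inhibitor genes are themselves switched on by NF-kB, which gives a negative feedback. In ILCs these pathways link interleukin 1, interleukin 33 and TNF family signals to cytokine production, and the noncanonical arm is known for its part in the formation of lymph nodes and gut follicles, which lymphoid tissue inducer cells start.

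Cells were placed in groups by marker genes, each detected by at least 1 unique molecular identifier (UMI), the tag that counts 1 captured RNA molecule. The markers were Ncr1 (the receptor NKp46, on natural killer cells, ILC1 and a subset of ILC3), Gata3 (the regulator of ILC2, present at lower levels in other ILCs), Klrd1 (CD94, on natural killer cells and ILC1), Cd3e (a chain of the T cell receptor complex) and Ccr6 (a chemokine receptor on lymphoid tissue inducer cells). In the small intestine 1605 cells were Ncr1+, 1643 Gata3+, 172 Klrd1+, 429 Cd3e+ and 541 Ccr6+. In the colon 665 were Ncr1+, 4218 Gata3+, 482 Klrd1+, 1384 Cd3e+ and 357 Ccr6+. Another 1882 small intestine cells and 1615 colon cells held none of the 5 markers. A cell could be in more than 1 group: 52.3% of small intestine Klrd1+ cells and 45.0% of colon Klrd1+ cells were also Ncr1+, as were 22.6% of small intestine Gata3+ cells and 4.96% of colon Gata3+ cells.

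The groups did not hold a single cell type each. Il22, a cytokine of ILC3, stood at 2454 CPM (UMIs of the gene per 1000000 UMIs) in small intestine Gata3+ cells and 1044 CPM in colon Gata3+ cells. Il23r, the interleukin 23 receptor of ILC3, stood at 40.8 CPM in small intestine and 10.1 CPM in colon Gata3+ cells, and Il1rl1, the interleukin 33 receptor of ILC2, at 26.4 and 124 CPM. Ccr6+ cells carried Il22 at 7430.4 CPM (small intestine) and 6851 CPM (colon), and the antigen presentation gene Cd74 at 1545 CPM in both tissues. T cell genes were present as well: the 8 genes of the T cell list, none at 0, summed to 7019 CPM in small intestine and 5601 CPM in colon Cd3e+ cells, with Trdc, the constant chain of the gamma-delta T cell receptor, at 1481 and 1456 CPM. In the other groups the T cell list summed to 965 to 3440 CPM (small intestine) and 1167 to 2119 CPM (colon), and 29.1% of small intestine and 19.5% of colon Klrd1+ cells were Cd3e+. Whether cells with surface CD3 were removed in the sort is not given in the sources used here. Free RNA alone, estimated at 5.36% of the UMIs of small intestine cells and 8.25% of those of colon cells, would make about 22.6 of the 541 small intestine Ccr6+ cells and 441.7 of the 4218 colon Gata3+ cells marker-positive. Its share was highest in Klrd1+ cells, at 19.5 of 172 cells in the small intestine and 101.7 of 482 in the colon, against 80.7 of 665 colon Ncr1+ cells. The median cell held 2366 to 2901 UMIs in the small intestine groups and 2439 to 3443 UMIs in the colon groups. Ccr6+ cells had the lowest median of the small intestine groups (2366) and the highest of the colon groups (3443). The part of these mixtures in the differences below was not tested, and a smaller share of expressing cells cannot be told apart here from less RNA per cell.

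The promoters of some of these genes carry the sequence that NF-kB itself binds, which is why 4 of them are shown. RefSeq promoter sequences, 250 bases before to 50 bases after a transcription start on the GRCm38.p6 assembly, were found for 7 of the 10 genes (11 promoters), while Nfkb1, Relb and Nfkbiz are named only. A motif of GGG, any 2 bases and TTTCC, searched on both strands, occurs in 1.63% of 32851 mouse promoters of this length and in at least 1 promoter of 1.89% of 27025 genes. A looser 10-letter NF-kB consensus occurs in 8.46% of promoters and in those of 9.55% of genes. It does not take in every sequence that fits the first motif, but did so for each match in the promoters read here. Below, capitals mark the bases of any match, and matches overlap where 1 stretch fits on both strands or in 2 registers.
Nfkbia (chr12:55492598-55492897, minus strand): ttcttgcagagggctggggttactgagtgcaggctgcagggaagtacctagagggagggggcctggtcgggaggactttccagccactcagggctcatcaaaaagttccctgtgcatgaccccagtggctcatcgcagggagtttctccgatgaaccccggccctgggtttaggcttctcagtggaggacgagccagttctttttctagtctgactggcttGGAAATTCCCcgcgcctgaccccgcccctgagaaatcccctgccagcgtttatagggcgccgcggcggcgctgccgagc
Nfkb2, promoter 1 of 3 (chr19:46304487-46304786, plus strand): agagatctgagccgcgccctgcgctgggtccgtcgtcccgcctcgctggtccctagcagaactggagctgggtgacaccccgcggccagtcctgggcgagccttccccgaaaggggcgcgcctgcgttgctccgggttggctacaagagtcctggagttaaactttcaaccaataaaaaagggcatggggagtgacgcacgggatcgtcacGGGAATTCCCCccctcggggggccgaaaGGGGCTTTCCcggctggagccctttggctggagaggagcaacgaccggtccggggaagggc
Nfkbie (chr17:45555450-45555749, plus strand): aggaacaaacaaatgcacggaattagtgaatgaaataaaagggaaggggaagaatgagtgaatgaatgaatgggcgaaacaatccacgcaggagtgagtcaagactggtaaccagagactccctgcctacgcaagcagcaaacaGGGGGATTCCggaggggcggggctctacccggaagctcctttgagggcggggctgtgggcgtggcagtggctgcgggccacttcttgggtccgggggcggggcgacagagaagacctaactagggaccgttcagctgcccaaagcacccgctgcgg
Nfkbid, promoter 2 of 3 (chr7:30422156-30422455, plus strand): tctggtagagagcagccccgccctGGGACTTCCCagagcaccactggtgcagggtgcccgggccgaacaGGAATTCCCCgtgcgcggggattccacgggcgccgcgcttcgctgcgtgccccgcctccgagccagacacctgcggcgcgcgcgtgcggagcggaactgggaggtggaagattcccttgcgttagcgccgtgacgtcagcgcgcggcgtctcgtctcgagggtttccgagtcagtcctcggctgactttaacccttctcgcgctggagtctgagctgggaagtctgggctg
The stricter motif was found in the promoters of Nfkbia, Rel and Nfkb2, in each of the 3 promoters of Nfkb2. The windows of Nfkb2 promoters 2 and 3 overlap, and their match is the same site on the chromosome. In the Nfkbia promoter it lies 20 to 29 bases before the start, on the minus strand of the gene. In the first Nfkb2 promoter it lies 2 to 11 bases before the start, next to a stretch at 30 to 39 bases that reads as the looser consensus on both strands. The Nfkbie promoter and the second Nfkbid promoter held the looser consensus only. Neither motif was found in the Rela and Nfkbib promoters or in the other Nfkbid promoters. A match describes the letters of the window and was not tested for binding.

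Nfkb1, Rel and Rela encode p50, c-Rel and RelA, the subunits freed by the canonical pathway. Nfkb1 (chr3:135584655-135691547 on GRCm38) was highest in Gata3+ cells of both tissues. In the small intestine it stood at 427 CPM in Ncr1+, 602 in Gata3+, 339 in Klrd1+, 399 in Cd3e+ and 382 in Ccr6+ cells. In the colon the Nfkb1 levels were 457, 605, 418, 414 and 524 CPM in the same groups. The intervals of both Gata3+ levels lay above those of all other groups, while 7 of the 9 neighbouring pairs in the order of the 10 levels overlapped. Nfkb1 overlaps a gene model on its own strand, Gm43430, and how such reads were assigned is not given in the sources used here.

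Rel (chr11:23736847-23770970) had a range close to that of Nfkb1, and its order differed between the tissues. The highest level was 1.74 times the lowest for Rel and 1.79 times for Nfkb1. The order of the Rel levels is given next. Rel levels in the small intestine were 254 CPM in Ncr1+, 235 in Gata3+, 187 in Klrd1+, 169 in Cd3e+ and 208 in Ccr6+ cells. In the colon Rel stood at 294 CPM in Ncr1+, 211 in Gata3+, 267 in Klrd1+, 192 in Cd3e+ and 265 in Ccr6+ cells. Cd3e+ cells were lowest in both tissues, with an interval that overlapped that of the next group.

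Rela (chr19:5637483-5648130) was highest in Ccr6+ cells of both tissues. In the small intestine its levels were 115 CPM in Ncr1+, 108 in Gata3+, 109 in Klrd1+, 90.2 in Cd3e+ and 163 in Ccr6+ cells. In the colon they were 108, 88.5, 99.3, 93.7 and 145 CPM. The interval of the Ccr6+ level was 143 to 186 CPM in the small intestine, where it met the upper end of that of Klrd1+ cells, and 127 to 164 CPM in the colon, where it stood clear of the other groups. Among those groups each interval overlapped the next.

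Nfkb2 and Relb encode p52 and RelB, the noncanonical pair. Nfkb2 (chr19:46304320-46312385) was highest in Ccr6+ cells: its levels in the small intestine were 140 CPM in Ncr1+, 131 in Gata3+, 97.9 in Klrd1+, 116 in Cd3e+ and 261 in Ccr6+ cells. In the colon Nfkb2 stood at 158 CPM in Ncr1+, 106 in Gata3+, 143 in Klrd1+, 114 in Cd3e+ and 190.4 in Ccr6+ cells. The small intestine Ccr6+ level (235 to 290 CPM) was separated from every other level. Relb (chr7:19606217-19629438) had a narrower range. Its small intestine levels were 106 CPM in Ncr1+, 98.3 in Gata3+, 145 in Klrd1+, 104 in Cd3e+ and 164 in Ccr6+ cells. In the colon it lay between 101 CPM in Gata3+ and 134 CPM in Klrd1+ cells, with 132 CPM in Ccr6+ cells, and no neighbouring pair of Relb levels was separated.

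Nfkbia, Nfkbib and Nfkbie encode IkB-alpha, IkB-beta and IkB-epsilon, the inhibitors that keep dimers in the cytoplasm. Nfkbia (chr12:55489410-55492647) was detected at 2988 CPM in Ncr1+, 2690.2 in Gata3+, 2178 in Klrd1+, 2225 in Cd3e+ and 2649 in Ccr6+ cells of the small intestine. In the colon its levels were 2453, 3164, 2269, 2483 and 2290.5 CPM. The top level was in Ncr1+ cells of the small intestine and in Gata3+ cells of the colon, and both stood clear of the next by their intervals. Nfkbia was found in 84.0% of small intestine cells and 84.4% of colon cells after each cell was thinned to 1000 UMIs, and in 95.1% and 95.8% without thinning. Cells with at least 5 Nfkbia UMIs made up 64.4% of small intestine and 63.9% of colon cells and held 89.3% and 90.4% of its UMIs. Free RNA would account for 179 CPM of Nfkbia in small intestine cells and 292 CPM in colon cells, against 2771 and 2886 CPM measured over all cells. No cell type in these libraries is known to lack the gene, so no background share of cells can be set beside these.

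Nfkbie (chr17:45555703-45563169) had a profile like that of Nfkb2. In the small intestine it stood at 138 CPM in Ncr1+, 122 in Gata3+, 89.4 in Klrd1+, 77.3 in Cd3e+ and 214 in Ccr6+ cells. In the colon Nfkbie levels were 176 CPM in Ncr1+, 97.5 in Gata3+, 162 in Klrd1+, 124 in Cd3e+ and 246 in Ccr6+ cells. Ccr6+ cells were highest in both tissues, with intervals (190.4 to 240 CPM, and 223 to 271 CPM) that overlapped each other. Over cells positive for Ccr6 and no other marker the intervals did not overlap. There Nfkbie stood at 230 CPM (200 to 263) in the small intestine and 334 CPM (289 to 385) in the colon. Nfkbib (chr7:28758251-28767512) did not separate the groups: its 10 levels ran from 82.4 CPM in colon Gata3+ cells to 118 CPM in colon Ncr1+ cells, and every neighbouring pair overlapped. Nfkb2 and Nfkbib overlap gene models on the opposite strand.

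Nfkbid and Nfkbiz encode IkB-NS and IkB-zeta, atypical inhibitors that act in the nucleus, where they bind p50 dimers and can raise or lower target genes. Nfkbid (chr7:30421732-30428746) was highest in Ncr1+ cells of the small intestine. Its levels there were 591 CPM in Ncr1+, 357 in Gata3+, 379 in Klrd1+, 337 in Cd3e+ and 366 in Ccr6+ cells. In the colon it stood at 335 CPM in Ncr1+, 304 in Gata3+, 278 in Klrd1+, 263 in Cd3e+ and 195 in Ccr6+ cells. Both ends of the order were separated by their intervals, small intestine Ncr1+ cells at the top (569 to 613 CPM) and colon Ccr6+ cells at the bottom (174 to 217 CPM). Nfkbiz (chr16:55811375-55838899) had a flatter profile in the small intestine, at 690.3 CPM in Ncr1+, 663 in Gata3+, 543 in Klrd1+, 496 in Cd3e+ and 593 in Ccr6+ cells. In the colon the Nfkbiz levels were 528, 625, 483, 403 and 446 CPM, with Gata3+ cells highest.

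**Figure D1:**
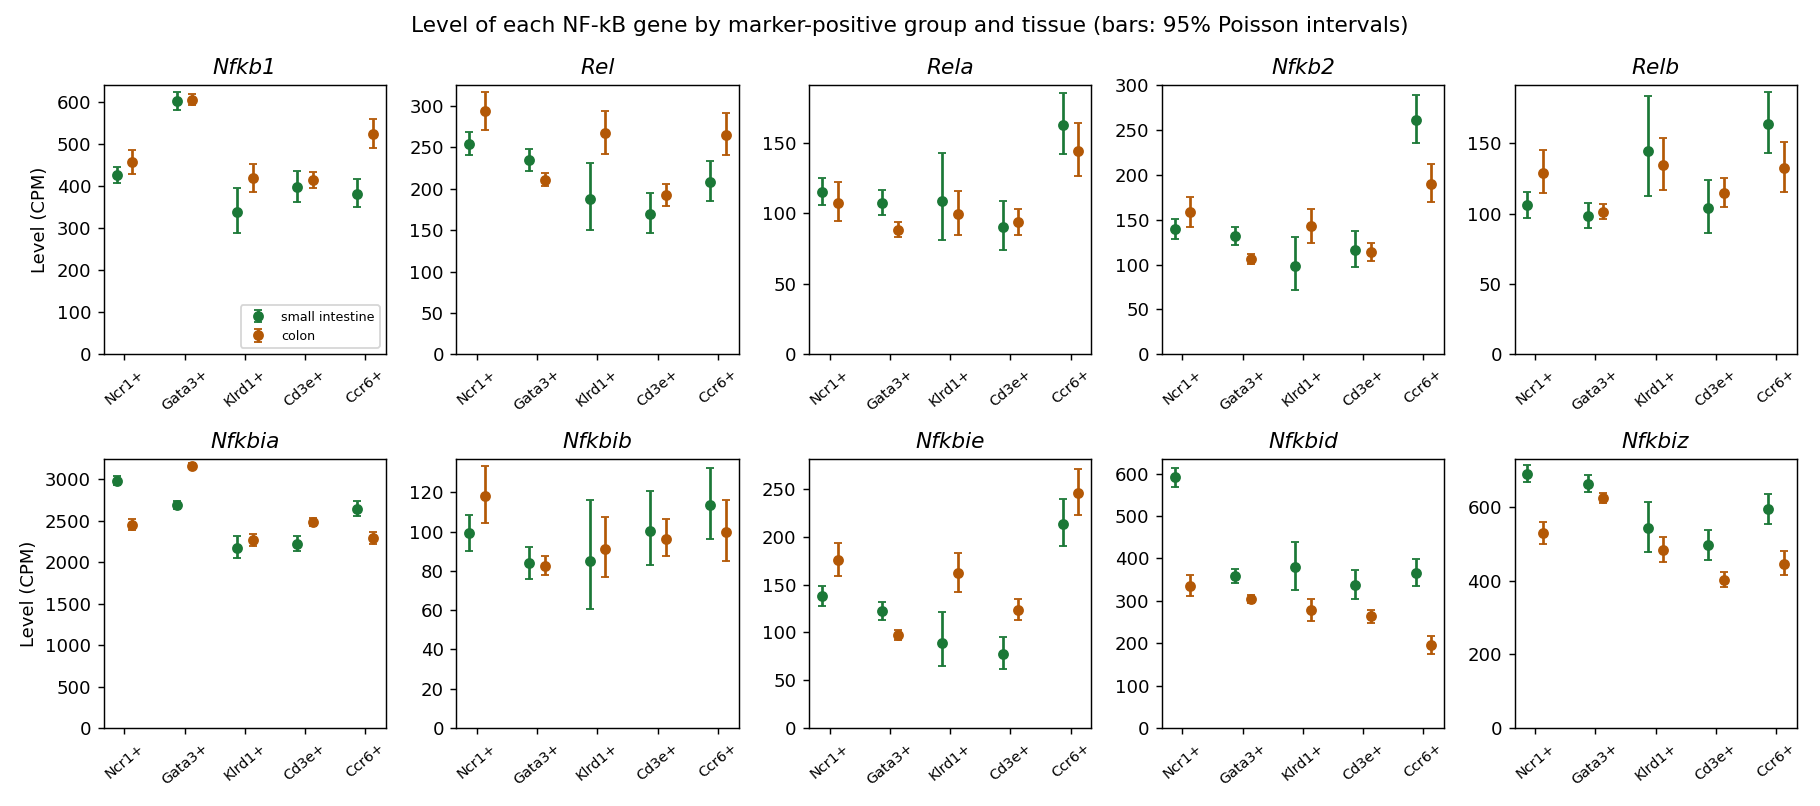
Level of each of the 10 genes in CPM (vertical axes, from 0) in 5 marker-positive groups, with small intestine in green left of colon in brown; points are UMIs summed over the cells of a group and bars are 95% Poisson intervals. Rela, Nfkb2 and Nfkbie are highest in Ccr6+ cells of both tissues (Nfkb2 at 261 and 190.4 CPM), while Nfkb1 is highest in Gata3+ cells and Nfkbid in Ncr1+ cells.

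The groups were then compared with Ccr6+ cells of the same library, leaving out cells positive for both markers of a pair. A gene was called when its CPM ratio was at least 2 or at most 0.5 with at least 20 UMIs over both sides. None of the 10 genes was called higher than in Ccr6+ cells in any of the 8 comparisons, and 8 calls were made lower, all of them Nfkb2 or Nfkbie. In the small intestine Gata3+ cells had 1 of 10 called lower, against 7.73% of all genes. Klrd1+ cells had 2 of 10 called lower (13% of all genes), Cd3e+ cells 2 of 10 (11.1%) and Ncr1+ cells 0 of 10 (6.5%). In the colon Gata3+ cells had 2 of 10 called lower (11.6% of all genes), Cd3e+ cells 1 of 10 (7.84%), Ncr1+ cells 0 of 10 (5.67%) and Klrd1+ cells 0 of 10 (8.88%). For calls higher, of which there were 0 of 10 throughout, the shares of all genes were 7.35%, 6.88%, 5.95% and 6.42% in small intestine Ncr1+, Gata3+, Klrd1+ and Cd3e+ cells and 4.82%, 10.6%, 4.91% and 6.49% in the colon groups. At most 2 of 10 genes were called in a comparison, near the share over all genes, so the counts themselves are no result about the family.

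Nfkb2 was below its Ccr6+ level in all 8 comparisons and under every alternative processing tried. In small intestine Gata3+ cells it stood at 124 CPM, against 272 CPM in Ccr6+ cells, a ratio of 0.458 (0.397 to 0.529). In small intestine Cd3e+ cells the ratio was 0.426 (0.345 to 0.524), at 111 CPM against 261 CPM in Ccr6+ cells. The lowest ratio, 0.375 (0.269 to 0.512) in small intestine Klrd1+ cells, rested on 45 Nfkb2 UMIs and was 0.575 over cells positive for a single marker. Small intestine Ncr1+ cells, at 137 CPM against 270.2 CPM in Ccr6+ cells, came to a ratio of 0.507, just outside the call. In the colon the Nfkb2 ratio was 0.467 (0.401 to 0.545) in Gata3+, 0.545 in Cd3e+, 0.725 in Klrd1+ and 0.804 in Ncr1+ cells. Marker lists of other cells were read in the same groups. The 5 myeloid genes summed to 0 CPM in small intestine Ccr6+ cells and 3.06 CPM in colon Ccr6+ cells, and to 1.38 to 36.2 CPM in the other small intestine groups and 2.07 to 21.6 CPM in the other colon groups. Of the 6 B or plasma cell genes, Cd79a and Ms4a1 were at 0 in Ccr6+ cells of both tissues, while Cd79b stood at 50.3 CPM in small intestine and 22.0 CPM in colon Ccr6+ cells. In the other groups Cd79b stood at 29.8 to 53.3 CPM (small intestine) and 6.28 to 24.7 CPM (colon). The whole B or plasma cell list summed to 435 CPM in small intestine and 127 CPM in colon Ccr6+ cells, and to 321 to 2869 CPM in the other small intestine groups and 114 to 1701 CPM in the other colon groups. The part of such cells in the Nfkb2 ratios was not tested.

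Nfkbie had the lowest ratio to Ccr6+ cells of the 10 genes in small intestine Cd3e+ cells and in all 4 colon groups, while Nfkb2 was lower in small intestine Ncr1+, Gata3+ and Klrd1+ cells. In colon Gata3+ cells it stood at 91.7 CPM, against 287 CPM in Ccr6+ cells, a ratio of 0.319 (0.278 to 0.367), or 3.14-fold lower. In small intestine Cd3e+ cells it stood at 76.0 CPM, against 216 CPM in Ccr6+ cells, or 2.85-fold lower. Colon Cd3e+ cells had a ratio of 0.450 (0.391 to 0.519). Small intestine Klrd1+ cells had 0.400 on 39 UMIs, which became 0.643 over cells positive for a single marker. The remaining Nfkbie ratios were 0.536 in small intestine Gata3+ cells, 0.627 and 0.673 in Ncr1+ cells of the small intestine and the colon, and 0.635 in colon Klrd1+ cells. Rela was also below its Ccr6+ level in all 8 comparisons, with ratios of 0.548 to 0.706 and none past 2-fold. In small intestine Cd3e+ cells the Rela ratio of 0.553 became 0.935 with each cell thinned to 1000 UMIs and the marker groups drawn again. Drawn from thinned counts, the Ccr6+ groups held 273 small intestine and 119 colon cells, in place of 541 and 357. In the groups drawn before thinning, thinned Rela stood at 117 CPM in small intestine Cd3e+ cells, against 165 CPM in Ccr6+ cells.

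Relb, the partner of p52, differed less evenly. In the small intestine its ratio to Ccr6+ cells was 0.625 in Ncr1+, 0.562 in Gata3+, 0.630 in Cd3e+ and 0.884 in Klrd1+ cells. In the colon the ratios were closer to 1, between 0.767 in Gata3+ and 1.02 in Klrd1+ cells, with intervals that included 1 in Ncr1+, Klrd1+ and Cd3e+ cells. Thinned to 1000 UMIs a cell with groups drawn again, the small intestine Relb ratios were 0.369 in Gata3+, 0.331 in Cd3e+ and 0.537 in Klrd1+ cells. That of colon Ncr1+ cells was then 1.46. With 2 UMIs required for a marker, colon Klrd1+ cells had a Relb ratio of 1.60. The Rel ratios in the small intestine were 1.29 in Ncr1+, 1.09 in Gata3+, 0.874 in Klrd1+ and 0.811 in Cd3e+ cells. After thinning with groups drawn again they were 2.28, 2.40, 1.69 and 1.67. In the groups drawn before thinning, thinned Rel stood at 245, 221, 151 and 163 CPM, against 161 CPM in Ccr6+ cells. The redrawn ratios thus carry the change of groups as well as that of depth, and the part of each was not tested. Nfkb1 was 1.54-fold (1.39 to 1.71) its Ccr6+ level in small intestine Gata3+ cells and 1.28-fold (1.16 to 1.41) in colon Gata3+ cells. In colon Ncr1+, Klrd1+ and Cd3e+ cells Nfkb1 was below its Ccr6+ level, with ratios of 0.852, 0.776 and 0.767.

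The atypical inhibitor Nfkbid was on the other side. In Ncr1+ cells it stood at 597 CPM, against 353 CPM in Ccr6+ cells, in the small intestine (ratio 1.69, 1.52 to 1.87), and at 352 CPM, against 189.9 CPM in Ccr6+ cells, in the colon (ratio 1.85, 1.60 to 2.15). In colon Gata3+ cells the Nfkbid ratio was 1.79 (1.52 to 2.11), while in small intestine Gata3+ cells it was 0.978 (0.875 to 1.10). Nfkbia at 1.44 (1.37 to 1.504) and Nfkbiz at 1.53 (1.38 to 1.70) were also above their Ccr6+ levels in colon Gata3+ cells, against 1.01 and 1.14 in small intestine Gata3+ cells. Whether these ratios differ between the tissues was not tested. At a 1.5-fold threshold, Ncr1+, Gata3+, Klrd1+ and Cd3e+ cells of the small intestine had 1, 1, 0 and 0 of the 10 genes called higher than in Ccr6+ cells, against 14.9%, 12.7%, 13.9% and 12.9% of all genes, and 3, 4, 3 and 4 called lower, against 15.3%, 19.5%, 24.5% and 22.8%. In the colon the same groups had 1, 2, 0 and 0 called higher, against 11.2%, 18.2%, 11.5% and 13.7% of all genes, and 0, 3, 2 and 3 called lower, against 14.3%, 23.3%, 18.3% and 18%.

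**Figure D2:**
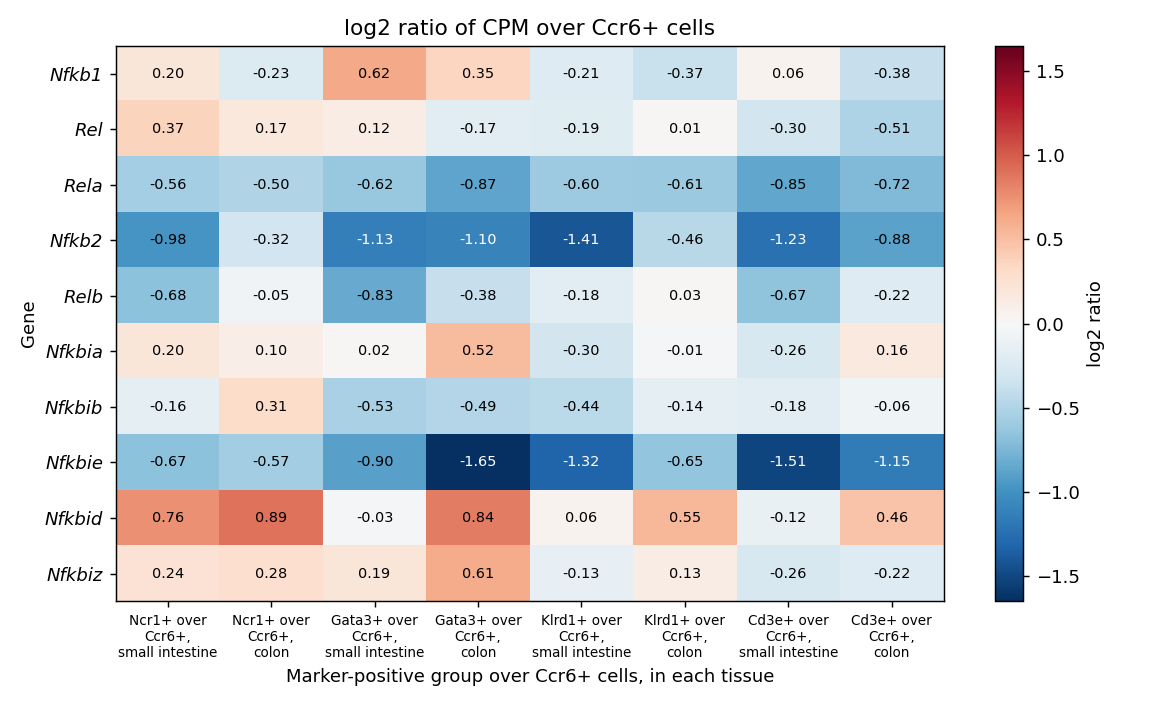
log2 ratio of CPM of each gene (rows) in 4 marker-positive groups over Ccr6+ cells of the same library (columns, small intestine left of colon); red is above and blue below the Ccr6+ level, and each cell prints its value. Nfkb2 and Nfkbie are below 0 in all 8 columns, down to -1.65 for Nfkbie in colon Gata3+ cells, and Nfkbid reaches 0.89 in colon Ncr1+ cells.

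Small intestine and colon were compared within each group. Of the 10 genes 0 were called 2-fold higher or lower over all cells, against 8.92% of all genes higher and 5.42% lower. The same was true of Ncr1+ cells (9.26% higher and 4.13% lower among all genes), Gata3+ cells (7.42% and 4.4%), Klrd1+ cells (7.17% and 4.89%), Cd3e+ cells (5.12% and 4.32%) and Ccr6+ cells (7.47% and 3.4%). The median log2 ratio of the 10 genes was 0.20 over all cells, where the median of all genes was also 0.20. In Ccr6+ cells the medians were 0.20 for the 10 genes and 0.18 for all genes, in Gata3+ cells 0.12 and 0.16, in Ncr1+ cells -0.14 and 0.21, in Klrd1+ cells -0.08 and 0.16, and in Cd3e+ cells -0.05 and 0.15. Because the median gene itself was 0.15 to 0.21 above 0 on the log2 scale, small ratios change sign when scaled to it.

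Nfkbid was the member with the largest difference in favour of the small intestine over all cells and in each group except Gata3+ cells. It stood at 591 CPM in small intestine Ncr1+ cells, against 335 CPM in colon Ncr1+ cells, a ratio of 1.77 (1.63 to 1.92). In Ccr6+ cells it was 366 CPM in the small intestine, against 195 CPM in the colon, a ratio of 1.88 (1.63 to 2.17). Over all cells the Nfkbid ratio was 1.56 (1.51 to 1.62), or 0.44 above the median gene on the log2 scale, and the Ncr1+ and Ccr6+ ratios were 0.61 and 0.72 above it. In Klrd1+ and Cd3e+ cells the ratios were 1.37 and 1.28. In Gata3+ cells the ratio was 1.17, and it was 0.773 when a cell needed 2 Gata3 UMIs, so no direction holds there. Nfkbie, Nfkb2 and Rela had larger ratios in Gata3+ cells, at 1.25, 1.24 and 1.22. At 1.5-fold, Nfkbid was the 1 member called higher over all cells (20.8% of all genes), in Ncr1+ cells (22.8%) and in Ccr6+ cells (21.9%), and 0 were called higher in Gata3+ (18%), Klrd1+ (21.1%) and Cd3e+ cells (16.5%).

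Nfkbie differed in the opposite direction in Klrd1+ and Cd3e+ cells. In Cd3e+ cells it stood at 77.3 CPM in the small intestine, against 124 CPM in the colon, 1.60-fold lower, where 9.73% of all genes were 1.5-fold lower. In Klrd1+ cells it stood at 89.4 CPM in the small intestine (42 UMIs), against 162 CPM in the colon, 1.81-fold lower, where 10.5% of all genes were. Over cells positive for Klrd1 and no other marker (31 small intestine and 120 colon cells) the ratio was 0.851. No other member was called 1.5-fold lower, with 0 of 10 over all cells (9.25% of all genes) and in Ncr1+ (8.35%), Gata3+ (8.63%) and Ccr6+ cells (8.23%). In Gata3+ cells Nfkbie was 1.25-fold (1.14 to 1.38) its colon level.

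Of the canonical subunits, Nfkb1 and Rel were lower in small intestine than in colon Ccr6+ cells: Nfkb1 stood at 382 CPM, against 524 CPM in colon Ccr6+ cells (ratio 0.729, 0.653 to 0.813), and Rel at 208 CPM, against 265 CPM (ratio 0.786, 0.675 to 0.914). With each cell thinned to 1000 UMIs and groups drawn again the Rel ratio was 0.486, past 2-fold. In the groups drawn before thinning, thinned Rel stood at 161 CPM, against 272 CPM in colon Ccr6+ cells. Nfkb2 in Ccr6+ cells was 1.37-fold (1.18 to 1.60) its colon level. Over cells positive for Ccr6 and no other marker (377 small intestine and 178 colon cells) the differences were smaller. The ratios were then 0.843 for Nfkb1, 0.910 for Rel and 1.15 for Nfkb2. For each of these genes the intervals of the small intestine and colon levels overlapped in those cells. Nfkbia was 1.22-fold (1.18 to 1.26) its colon level in Ncr1+ cells and 0.850 (0.834 to 0.867) in Gata3+ cells. Nfkbiz was above its colon level in every group, from 1.06 in Gata3+ to 1.33 in Ccr6+ cells, and only in Gata3+ cells did it turn below 1 under an alternative, at 0.949.

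**Figure D3:**
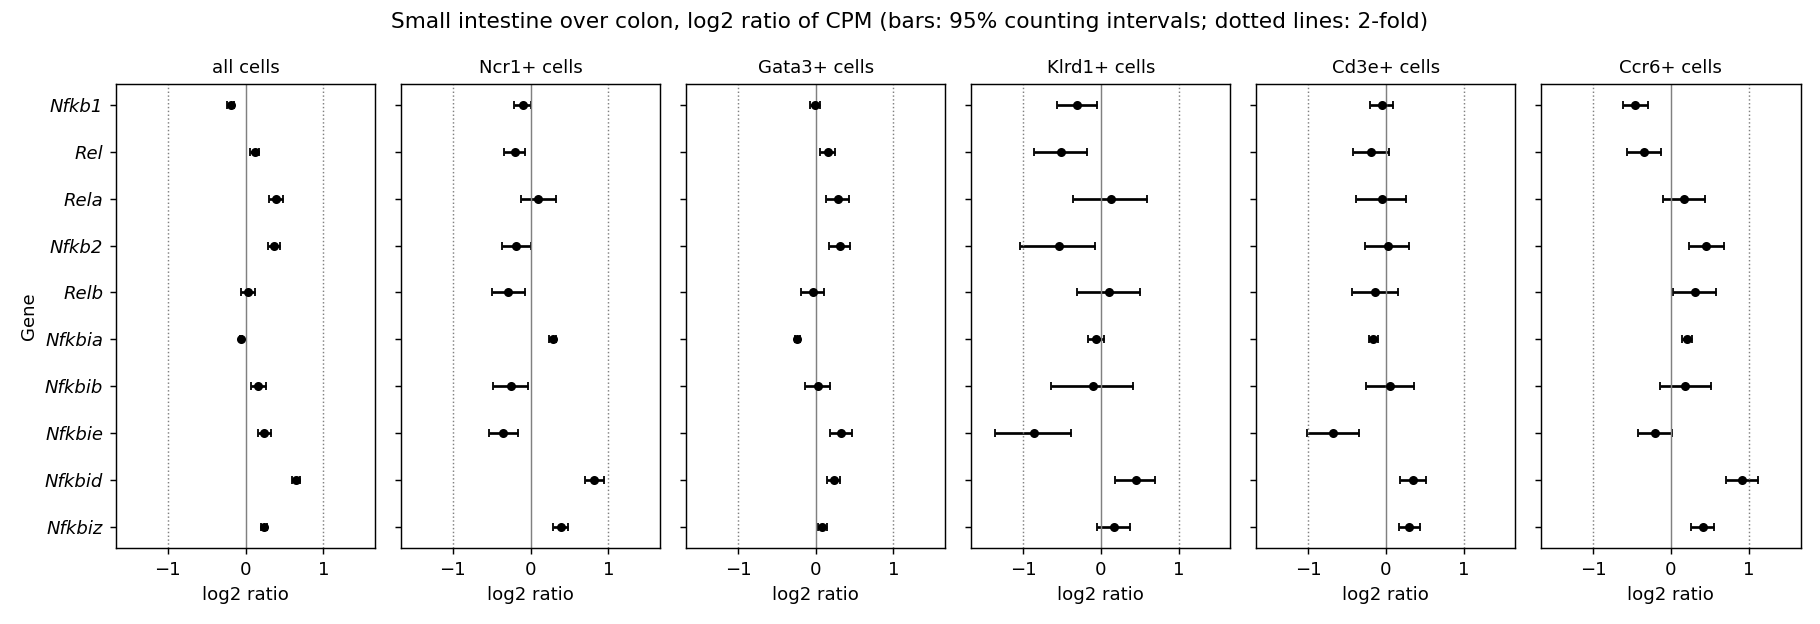
log2 ratio of CPM, small intestine over colon, for each gene (rows) in all cells and in 5 marker-positive groups (panels); points are ratios, bars 95% counting intervals and dotted lines 2-fold. Nfkbid lies right of 0 in every panel, at 0.82 in Ncr1+ and 0.91 in Ccr6+ cells, and Nfkbie lies left of 0 in Klrd1+ and Cd3e+ cells.

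Nfkbia, Nfkbid and Nfkbiz also moved with genes that respond to tissue dissociation. Cells of each library were ranked by the share of their UMIs from 24 such genes (Fos, Jun, Egr1, heat shock genes and others, none of them among the 10) and cut into 4 bins of equal size. The median cell of the highest bin had 260.1 list UMIs per 10000 (small intestine) and 210.2 (colon), and that of the lowest bin 90.2 and 74.6. Nfkbia stood at 1854, 2622, 3123 and 3608 CPM from the lowest to the highest bin in the small intestine, and at 1914.5, 2685, 3189 and 3742 CPM in the colon. Nfkbid ran through 289.5, 415, 509.85 and 566 CPM in small intestine bins and through 179, 261, 307 and 378 CPM in colon bins. Nfkbiz stood at 486, 681, 747 and 768 CPM in small intestine bins and at 400.05, 526, 616 and 713 CPM in colon bins. All 3 genes increased at each step in both tissues.

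The ratio of the highest to the lowest bin was 1.95 for Nfkbia in both tissues, 1.95 and 2.12 for Nfkbid in the small intestine and the colon, and 1.58 and 1.78 for Nfkbiz. A ratio of at least 1.5 was met by 13.6% of all genes for small intestine cells and 4.42% for colon cells, and one of at least 2 by 4.19% and 1.05%. Within each of the 10 marker-positive groups the ratio stayed above 1, between 1.32 and 3.56 for Nfkbia between 1.46 and 3.79 for Nfkbid, and between 1.18 and 2.17 for Nfkbiz. For Nfkbiz in Ccr6+ cells the intervals included 1, with ratios of 1.18 (0.963 to 1.44) in the small intestine and 1.23 (0.976 to 1.55) in the colon. The small intestine ratio was 0.624 after thinning with groups drawn again. Nfkb1 went with the list in the colon, at 605 CPM in the highest and 429 CPM in the lowest bin, and against it in the small intestine, at 365 and 485 CPM. Relb and Nfkbie were 0.729-fold in the highest colon bin and 1.27-fold and 1.15-fold in the small intestine. The marker groups also shifted along the ranking: Ccr6+ cells were 14.2% of the highest and 5.10% of the lowest small intestine bin, and Gata3+ cells 61.2% of the highest and 48.1% of the lowest colon bin. The summed level of the list was higher in the small intestine, while its median gene was lower. Over all cells it summed to 16704 CPM there, against 14031 CPM in colon cells, in Ncr1+ cells to 16777, against 13993 CPM, and in Ccr6+ cells to 19496, against 15077 CPM. The median log2 ratio of the 24 genes, small intestine over colon, was -0.18 over all cells, -0.42 in Ncr1+ cells and -0.15 in Ccr6+ cells. Over all cells Jun was 2.41-fold and Btg2 2.56-fold their colon levels, and 0 of the 24 genes were called 2-fold lower. In Ccr6+ cells 6 genes of the list were called higher and 4 lower. Among them Egr1 was 3.11-fold, and Hspa1b and Hspa1a were 0.130-fold and 0.198-fold. Without the highest bin of each library the log2 ratio of Nfkbid, small intestine over colon, was 0.68 over all cells, 0.97 in Ncr1+ cells and 0.95 in Ccr6+ cells. With all cells it was 0.65, 0.82 and 0.91.

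**Figure D4:**
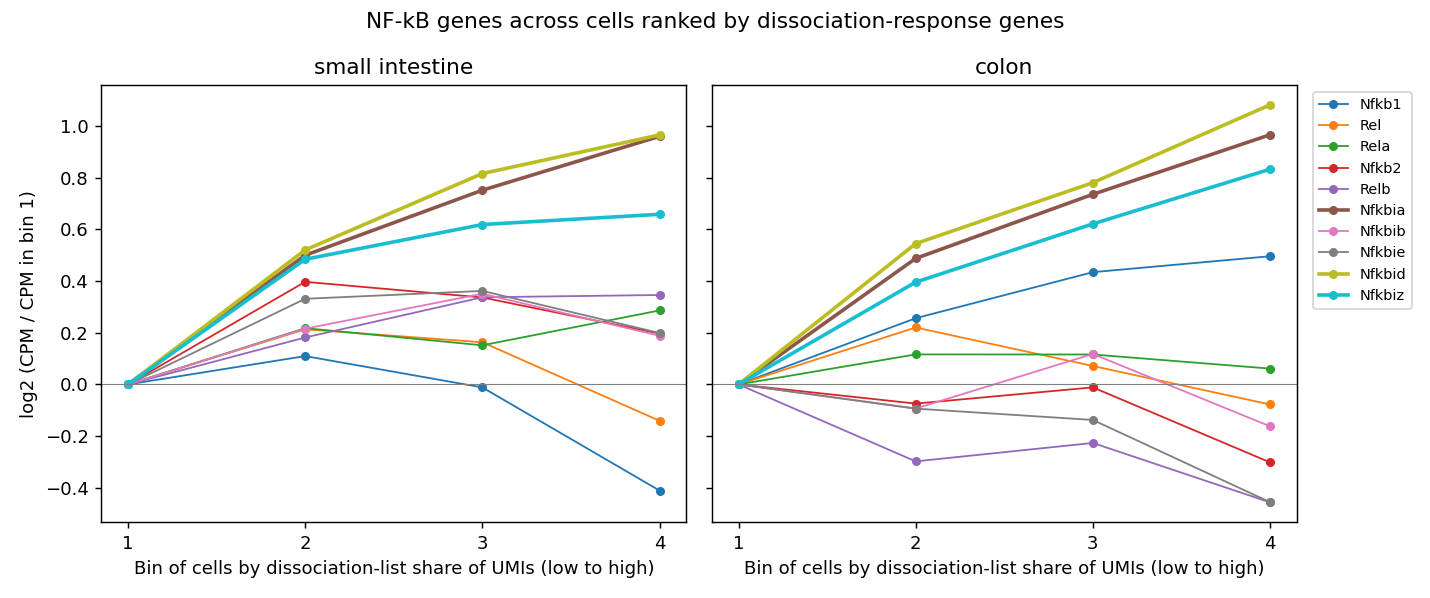
log2 of the CPM of each gene relative to the lowest bin (vertical axis) in 4 bins of the cells ranked by the share of UMIs from 24 dissociation-response genes (horizontal axis, low to high), for the small intestine (left) and the colon (right). Nfkbia, Nfkbid and Nfkbiz, drawn thicker, climb at each step to between 0.66 and 1.08, and Nfkb1 ends at 0.50 in the colon and -0.41 in the small intestine.

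Other genes of the pathway were read from lists of kinases and adaptors (21 genes), noncanonical components (10), receptors (12), feedback regulators (14) and targets (24). In the 8 comparisons with Ccr6+ cells 4.82% to 10.6% of all genes were called higher and 5.67% to 13% lower. Of the noncanonical list, 5 to 9 genes had at least 20 UMIs in a comparison with Ccr6+ cells, 1 to 3 were called lower in each and 0 were called higher in 7 of the 8 comparisons. The exception was Map3k14, the kinase that starts the pathway, at 2.07-fold in colon Klrd1+ cells. Tnfrsf11a, which encodes RANK, stood at 5.69 CPM in small intestine Ncr1+ cells, against 14.8 CPM in Ccr6+ cells, and at 5.14 CPM in colon Ncr1+ cells, against 13.4 CPM in Ccr6+ cells. These Tnfrsf11a levels rest on 10 to 26 UMIs a side. Tnfrsf12a was 0.387-fold and 0.337-fold in Ncr1+ cells of the small intestine and the colon, and 0.334-fold and 0.220-fold in Gata3+ cells. The lower calls also included Cd40 (0.126-fold) and the lymphotoxin beta receptor gene Ltbr (0.291-fold) in colon Gata3+ cells. Others were Traf3 in colon Klrd1+ (0.499-fold) and Cd3e+ cells (0.452-fold), and Birc3 in small intestine Cd3e+ cells (0.463-fold). The list holds components of different roles, and pathway activity was not measured. The median log2 ratio of the noncanonical list was between -1.04 and -0.20 in these comparisons, and that of all genes between -0.14 and -0.02.

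Of the kinases and adaptors, 15 to 21 were measured, 0 to 3 of them were called higher than in Ccr6+ cells and 0 or 1 lower, and counts this small say little about the list. Malt1, a protease of the adaptor complex that links antigen receptors to NF-kB, was called higher in 6 of the 8 comparisons, from 2.32-fold in colon Klrd1+ cells to 3.70-fold in small intestine Klrd1+ cells. It was 1.17-fold in colon Gata3+ and 1.18-fold in colon Cd3e+ cells. Of the receptors, 8 to 10 were measured, 1 to 3 called higher and 0 to 4 lower. Il1rl1 had the largest ratios, at 28.3 CPM in small intestine Gata3+ cells, against 0.9495 CPM (1 UMI) in Ccr6+ cells, and at 128 CPM in colon Gata3+ cells, against 3.37 CPM (3 UMIs) in Ccr6+ cells, 29.8-fold (5.27 to 1188) and 38.1-fold (13.01 to 184.9). Il1r1, the interleukin 1 receptor, stood at 12.8 CPM in colon Gata3+ cells, against 105.6 CPM in Ccr6+ cells. Tnfrsf1a, the main TNF receptor, stood at 40.1 CPM in small intestine Ncr1+ cells, against 9.06 CPM in Ccr6+ cells (4.42-fold), and at 43.2 CPM in colon Ncr1+ cells, against 8.16 CPM in Ccr6+ cells (5.29-fold). In Gata3+ cells Tnfrsf1a was 0.995-fold (small intestine) and 1.16-fold (colon) its Ccr6+ level.

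Of the feedback regulators, 13 or 14 were measured, 0 or 1 called higher than in Ccr6+ cells and 1 or 2 lower, near the shares of all genes. Tnip3, an inhibitor of NF-kB signalling that binds A20, was called lower in all 8 comparisons. It stood at 1.31 CPM in small intestine Ncr1+ cells, against 23.1 CPM in Ccr6+ cells (6 and 28 UMIs), and at 3.37 CPM in colon Gata3+ cells, against 28.1 CPM in Ccr6+ cells. Of the 24 targets, 20 to 23 were measured, 4 to 8 called higher than in Ccr6+ cells and 2 to 6 lower. The largest ratios with UMIs on both sides were those of the chemokine genes Ccl4 and Ccl3, though not in every comparison. In colon Cd3e+ cells Bcl2a1b was 6.93-fold and Ccl3 0.31-fold. Il6 had no UMI in the Ccr6+ cells set against small intestine Gata3+ cells, so its ratio there has no finite value. Ccl4 stood at 2635 CPM in small intestine Klrd1+ cells, against 11.6 CPM in Ccr6+ cells (227-fold, 139 to 398), and at 432 CPM in small intestine Ncr1+ cells, against 12.4 CPM in Ccr6+ cells. In the colon Ccl4 was 25.1-fold in Ncr1+ and 17.6-fold in Klrd1+ cells, and 0.664-fold in Gata3+ cells. Ccl3 was 84.7-fold in small intestine Klrd1+, 14.5-fold in small intestine Ncr1+ and 13.6-fold in colon Ncr1+ cells. Csf2, the gene of the cytokine GM-CSF, was 8.06-fold in small intestine Ncr1+, 5.79-fold in small intestine Gata3+ and 8.52-fold in colon Gata3+ cells. Cd83, a surface protein of activated immune cells, stood at 236 CPM in small intestine Gata3+ cells, against 1585 CPM in Ccr6+ cells, and at 109 CPM in colon Gata3+ cells, against 805 CPM in Ccr6+ cells. Between the tissues, over all cells, 1 of 21 kinases and adaptors, 1 of 10 noncanonical components, 2 of 11 receptors, 0 of 14 feedback regulators and 4 of 23 measured targets were called higher in the small intestine, and 0, 2, 3, 0 and 1 lower, against 8.92% of all genes higher and 5.42% lower. Ltbr, the lymphotoxin beta receptor, was 2.96-fold (2.11 to 4.20) its colon level over all cells, on 106 and 53 UMIs. Ccl3 was 4.66-fold and Ccl4 3.58-fold their colon levels over all cells, Ier3 was 0.205-fold and Il1rl1 0.121-fold. The chemokine ratios differed by group. In Ccr6+ cells Ccl3 was 0.347-fold and Ccl4 0.492-fold, and in Ncr1+ cells neither was called. In Gata3+, Klrd1+ and Cd3e+ cells Ccl3 was 3.71-fold, 8.71-fold and 4.8-fold, and Ccl4 5.38-fold, 5.28-fold and 6.2-fold. Tnf was 2.79-fold (2.54 to 3.05) its colon level over all cells, and 3.11-fold in Ncr1+ cells.

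Genes with profiles most like those of the 10 were sought over the 10 levels (5 groups in each of 2 tissues), among 8400 other genes. Correlations over 10 levels that share libraries and cells are descriptions only. Rela was most like Cd83 (Pearson r 0.98), Nfkb2 most like Rcn2 (0.98) and Nfkbie most like Mapkapk2 (0.99). For Nfkb1 the nearest was Spty2d1 (0.95), for Nfkbid Hars (0.95), for Rel Agpat2 (0.94), for Relb Inf2 (0.93), for Nfkbia Gadd45b (0.91), for Nfkbiz Selenbp1 (0.91) and for Nfkbib Mien1 (0.90). Among the 10 genes themselves, Nfkb2 had r of 0.87 with both Rela and Nfkbie, and Nfkbid had 0.76 with Nfkbiz. Nfkb1 and Relb had the lowest value, -0.59.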

How the data were processed

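The deposited files held whole-number counts of UMIs per gene and cell barcode, made by the authors with Cell Ranger 3.0.2 on the mm10 genome, per the submitters' processing notes. Each of the 2 matrices held 31053 genes and 737280 barcodes. The deposited table of all cells held the same counts for the authors' cells, with 0 values that differed from the matrices. How those cells were chosen is not given in the sources used here. Small intestine cells held 15080081 UMIs and colon cells 22332691, at least 1111 and 1156 per cell. A total of 60 barcodes occurred in both libraries, against 56.2 by chance.

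Within a group the UMIs of all cells were added and scaled to CPM, with exact Poisson intervals for levels and exact conditional binomial intervals for ratios. The ratio intervals were tried on simulated Poisson counts, the model they assume, which cannot show how they hold for these data. Such intervals cover counting error only and leave out the spread between cells. The variance of Nfkbia UMIs per cell over their mean ran from 4.49 (small intestine Ccr6+) to 7.77 (colon Cd3e+), above that of Poisson counts. The free RNA profile came from barcodes with 10 to 50 UMIs and its share from Igkc, Igha and Jchain. No doublets were removed beyond the authors' choice. Gene positions are from GENCODE vM21 and promoter sequences from RefSeq (GRCm38.p6). Protein sequences were not analysed here. Not every gene of the marker lists is reported here. Profiles alike were ranked by Pearson r of log2(CPM + 1) among genes with at least 200 UMIs. All 10 genes were named, and of each pathway list up to 4 genes from among those with the largest ratios in a comparison. The members, marker groups and gene lists were chosen with earlier results of these data known. Python 3.11.15, scipy 1.17.1 and scanpy 1.11.5 (for Scrublet) were used. Alternatives were another fold, scaling, UMI minimum, cell choice and marker rule, thinning, free RNA subtraction, doublet removal and leaving out the top bin of the dissociation ranking.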

Additional observations from a re-analysis of the deposited data

How the results depend on the processing

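No paired analysis was possible because each tissue had 1 library. Of the 140 member ratios, 98 kept their direction under all 10 alternatives, as did all 32 that were past 1.5-fold. The 10 include the other fold and the lack of a UMI minimum, which could not change a ratio here. The number of the 10 genes called rose at a 1.5-fold threshold by its construction: over Ccr6+ cells to 4 in Ncr1+, 5 in Gata3+, 3 in Klrd1+ and 4 in Cd3e+ cells of the small intestine (0, 1, 2 and 2 at 2-fold), and to 1, 5, 2 and 3 in the colon groups (0, 2, 0 and 1 at 2-fold). For small intestine over colon it was 1 over all cells and in Ncr1+, Klrd1+, Cd3e+ and Ccr6+ cells, in place of 0. Thinning to 1000 UMIs was followed by drawing the marker groups again from the thinned counts. Over Ccr6+ cells the counts were then 3 in small intestine Ncr1+, 4 in small intestine Gata3+, 1 in colon Ncr1+ and 2 in colon Cd3e+ cells. For the tissues the count was 1 in Ccr6+ cells. With 2 UMIs for a marker they were 3 in small intestine Gata3+, 1 in colon Gata3+ and 0 in colon Cd3e+ cells, and 1 for the tissues in Klrd1+ cells. With groups that share no cells they were 0 in small intestine Klrd1+, 1 in colon Ncr1+ and 2 in colon Cd3e+ cells, and 1 for the tissues in Ccr6+ cells. A median-ratio size factor gave 0 in small intestine Gata3+ and 1 in colon Gata3+ cells, and 1 for the tissues in Klrd1+ cells. Subtracting free RNA gave 1 in small intestine Ncr1+ cells. Leaving out doublets marked by Scrublet (241 small intestine and 456 colon cells) gave 1 in Ncr1+ cells of both tissues, and 1 for the tissues in Ccr6+ and Klrd1+ cells. Without the top bin of the dissociation ranking small intestine Gata3+ cells had 2. Own cell calls and no UMI minimum moved no count by more than 1.5 times. For these changes the cause was not tested. Bins formed after thinning, and within marker groups, were added after seeing the data, and Nfkbia kept a ratio above 1 in all of them. Depth limits the Klrd1+ cells of the small intestine most, with 172 cells that held 46 UMIs of Nfkb2, 42 of Nfkbie, 40 of Nfkbib and 51 of Rela.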
